A study of Mus musculus with 4 samples.

Results

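Among splenic CD4+ dendritic cells, 10 genes of the liver X receptor (LXR) pathway and of fatty acid desaturation were followed 1 h after mice received sheep red blood cells (SRBC). They were taken by gene name: the receptor genes Nr1h3 and Nr1h2, the sterol exporter genes Abca1 and Abcg1, the desaturase genes Scd1 and Scd2, the lipogenic regulator Srebf1, the ubiquitin ligase gene Mylip, the acyltransferase gene Lpcat3, and Apoe. Each matched 1 locus, so 10 of the 30043 loci of the deposited table are described. All mice were C57BL/6 and GPR183 heterozygotes, so the controls too carried this genotype of an oxysterol receptor gene. One group had been given 100 uL of PBS and the other 1000000000 SRBC, each 1 h before the spleen was taken, and each group held 2 libraries. Cells had been gated as CD11c+, I-Ab+, CD4+ and CD8-, with a stated purity above 99%, and each library was made from 100 ng of RNA. Age, sex and pooling of animals are not given in the labels, and neither is the number of mice behind a group. Every p-value below therefore rests on the spread among 4 libraries, and possibly on technical spread alone. In the limma fit that spread was largely borrowed across loci.

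LXR alpha (Nr1h3) and LXR beta (Nr1h2) are nuclear receptors that bind oxysterols, pair with retinoid X receptors and switch on genes that move cholesterol out of the cell. ABCA1 and ABCG1 pump cholesterol to lipoproteins, APOE carries it, MYLIP (also called IDOL) is a ubiquitin ligase that lowers lipoprotein uptake, and SREBP1, SCD enzymes and LPCAT3 shape the fatty acids of membranes. In macrophages, loading with cholesterol from engulfed cells is known to activate this set. Splenic macrophages depend on LXR alpha, while dendritic cells also use oxysterols, through GPR183, as positioning cues.

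The values were FPKM, that is, fragments divided by transcript length and by library size, so levels of different genes can be set side by side. Summed FPKM was 377167 to 410321 in the PBS and 509007 to 558016 in the SRBC libraries. From the smallest steps between low values, depth was roughly 7950000 to 9140000 fragments a library. The gate was checked by its genes: Itgax (CD11c) measured 180 and 212 FPKM in the PBS libraries, then 222 and 253 in the SRBC libraries, Cd4 measured 88.4 and 86.6, then 75.8 and 96.4, and Cd8a stayed between 1.20 and 2.63. H2-Ab1, which encodes the gated I-Ab chain, measured 4440 and 3905, then 7751 and 8908, and was called higher (log2 fold change 0.997, limma adjusted p = 0.042). Its cuffdiff q-value in the authors' deposited table was 0.932. Among 15 macrophage markers, whose summed level was 134 to 155 after PBS and 189 to 232 after SRBC, 2 of 12 tested (Timd4 and Spic) were called higher and 0 lower. Beside this and the marker counts that follow, 13.5% of all tested loci were called higher and 6.20% lower. Adgre1 (F4/80) measured 44.3 and 54.1 with PBS, against 33.6 and 36.7 with SRBC, and Siglec1 and Cd163 lay below 1 in every library. Summed markers of monocytes, neutrophils, B, T, NK, plasmacytoid and erythroid cells were each higher in PBS library 1 than in 2, and in SRBC library 2 than in 1. Between groups, erythroid markers summed to 65.2 and 12.9, then 114 and 197, with 4 of 5 tested called higher. Of 5 tested neutrophil markers, 2 (S100a8 and S100a9) were called higher, although the groups overlapped for both. Each was higher in PBS library 1 than in SRBC library 1 and lowest in PBS library 2. The cuffdiff q-values of S100a8 and S100a9 in the authors' deposited table were 0.095 and 0.347. Xist measured 0.210 and 0.327 in the PBS libraries, then 339 and 306 in the SRBC libraries, while the Y-linked gene Ddx3y measured 17.2 and 20.4, then 0.0307 and 0.00819, so treatment and sex cannot be told apart in any result below.

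Receptors and targets did not move as a block (the plot of levels by library). Of the 10 genes, all of which passed the filter on low values, 2 rose (Scd1 and Nr1h3), 2 fell (Mylip and Abcg1) and 6 were not called. Over all 11020 loci tested with limma at an adjusted p under 0.05, 13.5% were called higher and 6.20% lower, or 19.7% in either direction. The median log2 fold change, taken on log2(FPKM + 1) as the SRBC mean less the PBS mean, was 0.21 for the 10 genes and 0.070 for all tested loci. Groups did not overlap for 6 of the 10, 4 with SRBC above and 2 below, against 34.3% above, 24.7% below and 59.0% in either direction among all tested loci. This median of all loci moved to -0.33 when the libraries were rescaled to TPM, so each direction is given on the deposited scale, with its range over 4 rescalings where it matters.

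**Figure D1:**
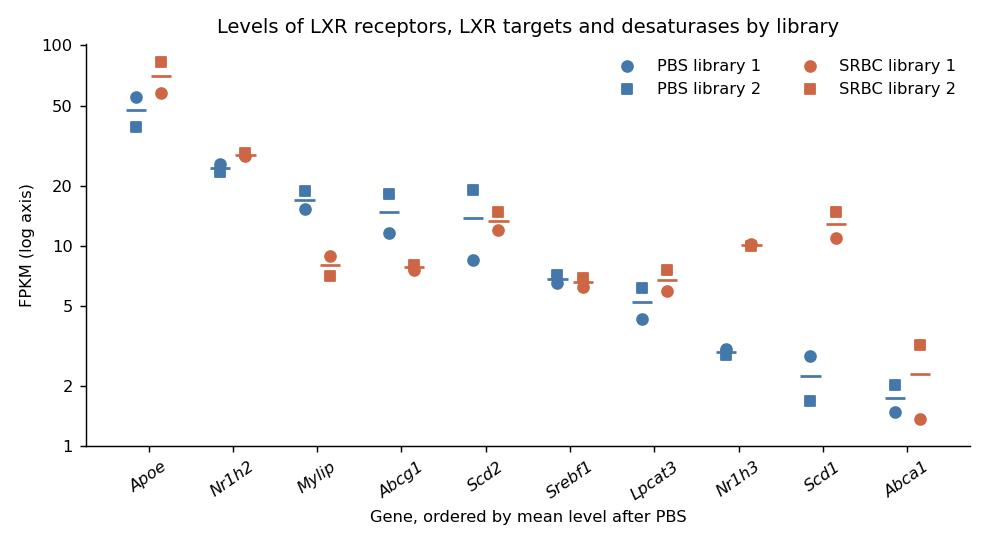
FPKM on a log axis for each of the 10 genes in the 2 PBS (blue) and 2 SRBC (orange) libraries, with a short line at each group mean; circles are library 1 and squares library 2. Scd1 and Nr1h3 lie higher after SRBC and Mylip and Abcg1 lower, while the groups of Scd2, Srebf1, Lpcat3 and Abca1 overlap.

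Of the receptors, Nr1h3 rose and Nr1h2 was not called. Nr1h3 (GRCm38 chromosome 2, 91184061 to 91202834, minus strand) measured 3.06 and 2.86 FPKM with PBS, against 10.2 and 9.94 with SRBC. Both SRBC libraries stood far above both PBS libraries, and the libraries of a group lay close together. The mean level rose 3.40-fold, from 2.96 ± 0.145 to 10.1 ± 0.162 (SD, n = 2), with a log2 fold change of 1.48 ± 0.27 SE and a limma adjusted p of 9.6e-05. It was called under all 14 alternatives run, with log2 fold changes from 1.22 to 1.73. With about 48 and 51 fragments after PBS against 169 and 154 after SRBC, it was among the more thinly counted of the 10 genes. Nr1h2 (chromosome 7, 44549616 to 44553951, minus strand), the broadly expressed receptor, measured 25.7 and 23.3 in the PBS libraries, then 28.1 and 28.9 in the SRBC libraries. The SRBC libraries lay just above the PBS libraries, the log2 fold change was 0.21 (95% interval -0.24 to 0.67, limma adjusted p = 0.56), and its sign turned with upper-quartile, quantile and TPM rescaling.

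The balance of the receptors can be read within a library, where scaling cancels. Nr1h3 stood at 0.119 and 0.122 of Nr1h2 after PBS and at 0.362 and 0.344 after SRBC. LXR beta transcripts thus remained the more abundant in every library, by level per length, while the alpha to beta ratio went up by 1.55 on the log2 scale. With 2 libraries against 2, the exact two-sided permutation p of this ratio was 0.333, the smallest this design allows. No stretch of 25 bases is shared by the longest coding transcripts of the pair, so no read that long matches both genes exactly.

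The desaturases make monounsaturated from saturated fatty acids at the endoplasmic reticulum. Scd1 (chromosome 19, 44394455 to 44407879, minus strand) measured 2.83 and 1.68 FPKM with PBS, against 11.0 and 14.8 with SRBC. The lowest SRBC library was well above the highest PBS library. Its mean rose 5.72-fold, from 2.26 ± 0.810 to 12.9 ± 2.72 (SD, n = 2; log2 fold change 2.103 ± 0.278 SE, limma adjusted p = 8.4e-07), and 155 of the 11020 tested loci rose more on that scale. It was called under all 14 alternatives, from 1.85 to 2.49. Scd1 shared with the summed markers of other cells the order of libraries within each group. Their part in its change was not tested, and neutrophil markers, for example, summed to 62.7 and 5.94 in the PBS libraries, then 39.7 and 92.3 in the SRBC libraries.

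Scd2 lies 87591 bases from Scd1 on the same chromosome (44293674 to 44306864, plus strand) and encodes a sister desaturase. Its locus, which also carries the name of the microRNA gene Mir5114, measured 8.52 and 19.0 with PBS, against 11.9 and 14.8 with SRBC. Both SRBC values fell between the PBS values, and the PBS libraries stood far apart. The log2 fold change was 0.054 (95% interval -0.51 to 0.62, limma adjusted p = 0.92), and leaving out single libraries gave -0.48 to 0.59. Mir5114 covers 61 exonic bases, or 1.12% of those of Scd2.

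Within a library, Scd1 stood at 0.332 and 0.0887 of Scd2 after PBS and at 0.920 and 0.999 after SRBC (the plot of ratios within libraries). The minor desaturase transcript of the PBS libraries was thus about level with the major one after SRBC. The log2 ratio rose by 2.48, with an SD of 1.35 between PBS libraries and 0.085 between SRBC libraries, and the exact two-sided permutation p was 0.333, the smallest possible here. Of the 4783 stretches of 50 bases in the Scd1 transcript, 3.03% occur in that of Scd2, and of 25 bases 6.61%, so only a small part of the reads could be split between them. Scd3 and Scd4, the remaining mouse desaturases of the family, stayed below 1 FPKM in every library.

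**Figure D2:**
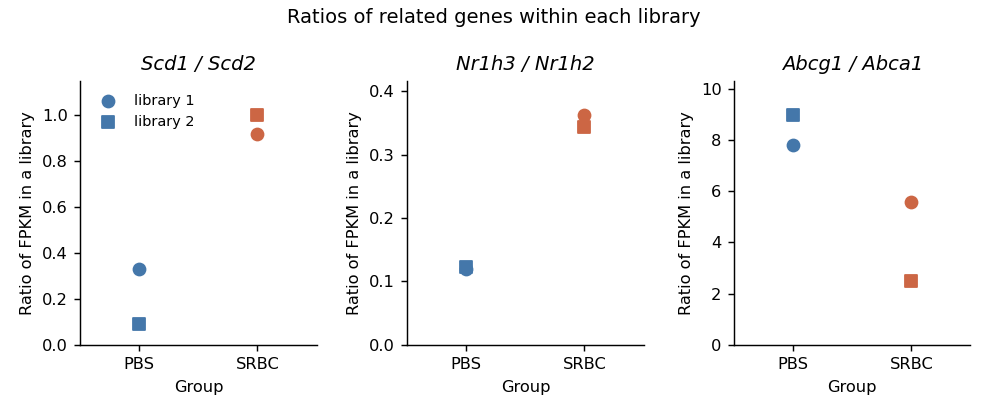
Ratio of FPKM between related genes inside each library, with an axis from 0, for PBS (blue) and SRBC (orange); circles are library 1 and squares library 2. Scd1 to Scd2 and Nr1h3 to Nr1h2 are higher in both SRBC libraries, and Abcg1 to Abca1 is lower in both.

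Of the exporters, Abcg1 fell and Abca1 was not called. Abcg1 (chromosome 17, 31057675 to 31117988, plus strand), whose product loads cholesterol onto mature lipoproteins, measured 11.5 and 18.0 FPKM in the PBS libraries, then 7.61 and 8.02 in the SRBC libraries. Both SRBC libraries were below both PBS libraries, and the PBS libraries differed more from each other than the SRBC libraries did. The mean was 14.8 ± 4.60 after PBS and 7.82 ± 0.290 after SRBC, or 1.89-fold lower (log2 fold change -0.81 ± 0.26 SE, limma adjusted p = 0.024). The call held under all 4 rescalings (-1.27 to -0.90) and was lost without PBS library 2 (-0.51, limma adjusted p = 0.20), without either SRBC library (-0.78, limma adjusted p = 0.16, and -0.84, limma adjusted p = 0.15) and with no filter on low values (limma adjusted p = 0.14). In every one of 14 alternatives the value stayed below 0. Here and below, a fit without a library leaves 1 in its group, which is then assumed to vary like the other group.

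Abca1 (chromosome 4, 53030787 to 53159895, minus strand), whose product loads cholesterol onto lipid-poor apolipoproteins, measured 1.48 and 2.01 with PBS, against 1.36 and 3.21 with SRBC. The groups overlapped, with SRBC library 1 the lowest and SRBC library 2 the highest of all 4. It was the scarcest of the 10 genes in both groups, although its long transcript still gave about 119 to 262 fragments a library. The log2 fold change was 0.21 (95% interval -0.42 to 0.83, limma adjusted p = 0.69), and its sign turned without SRBC library 2 (-0.21) and with TPM rescaling (-0.12). Abcg1 was 7.82 and 8.96 times as abundant as Abca1 after PBS and 5.59 and 2.50 times after SRBC. This ratio fell by 1.16 on the log2 scale (exact two-sided permutation p = 0.333, the smallest possible).

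Mylip fell. The gene (chromosome 13, 45389742 to 45412022, plus strand) measured 15.3 and 18.7 FPKM in the PBS libraries, then 8.88 and 7.10 in the SRBC libraries. Each SRBC library was well below each PBS library. The mean fell from 17.0 ± 2.41 to 7.99 ± 1.25 (SD, n = 2), or 2.12-fold (log2 fold change -1.0 ± 0.25 SE, limma adjusted p = 0.0037), with -1.47 to -1.09 under the 4 rescalings. The call was lost without SRBC library 2 (-0.86, limma adjusted p = 0.13) and with no filter on low values (limma adjusted p = 0.055).

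Srebf1 and Lpcat3, a lipogenic transcription factor and a phospholipid acyltransferase, were not called. Srebf1 (chromosome 11, 60199089 to 60222581, minus strand) measured 6.52 and 7.18 in the PBS libraries, then 6.26 and 6.92 in the SRBC libraries. The groups interleaved and the log2 fold change was -0.050 (95% interval -0.58 to 0.48, limma adjusted p = 0.92). The table sums all starts of this gene, so its 1a and 1c forms were not separated, and 109 exonic bases (2.54%) are shared with Rai1 on the opposite strand. Lpcat3 (chromosome 6, 124663027 to 124704418, plus strand) measured 4.34 and 6.16 with PBS, against 5.98 and 7.55 with SRBC. SRBC library 1 fell between the PBS values, the log2 fold change was 0.32 (95% interval -0.23 to 0.88, limma adjusted p = 0.45), and 38 exonic bases (1.67%) are shared with Emg1 on the opposite strand.

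Apoe was the most abundant of the 10 genes in every library. The gene (chromosome 7, 19696109 to 19699188, minus strand) measured 55.4 and 39.4 FPKM in the PBS libraries, then 57.9 and 82.8 in the SRBC libraries. Both SRBC values were above both PBS values, SRBC library 1 by little. With a mean of 47.4 ± 11.3 after PBS and 70.3 ± 17.6 after SRBC, the log2 fold change was 0.56 (95% interval 0.081 to 1.03) and the limma adjusted p 0.092, short of the threshold. It was called without PBS library 1 (0.80, limma adjusted p = 0.033) and without SRBC library 1 (0.81, limma adjusted p = 0.048), and it was 0.088 after quantile normalization. The summed macrophage markers, at 155 and 134 with PBS, then 189 and 232, had the order of libraries of Apoe. Of the complement genes among them, C1qb had it too (31.6, 24.95, 37.0 and 49.6), while C1qa (9.87, 7.45, 6.25 and 10.6) and C1qc (28.57, 15.3, 28.53 and 33.98) did not. The summed markers of the other cell types shared with Apoe the order within each group. The part of these cells in the Apoe values was not tested. In bulk samples fewer cells of a type and less RNA per cell cannot be told apart.

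**Figure D3:**
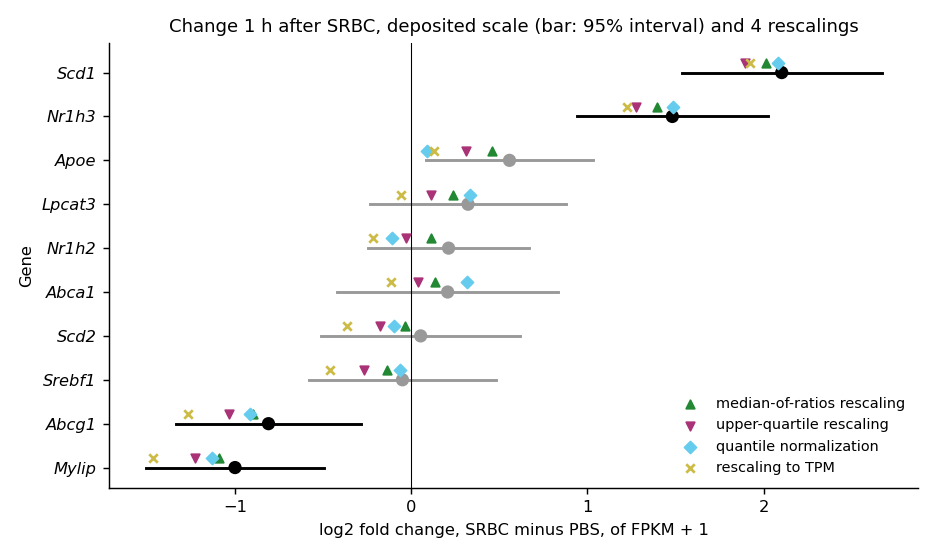
Log2 fold change of FPKM + 1, SRBC minus PBS, for the 10 genes on the deposited scale (circle with 95% interval, black where the adjusted p was under 0.05) and under 4 rescalings (coloured marks). Scd1 and Nr1h3 stay above 0 and Mylip and Abcg1 below 0 in each of them, while Nr1h2, Abca1, Scd2 and Lpcat3 change sign in at least 1.

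The order of the 10 levels shifted between groups. After PBS it ran Apoe, Nr1h2, Mylip, Abcg1, Scd2, Srebf1, Lpcat3, Nr1h3, Scd1 and Abca1. The libraries of Mylip, Abcg1 and Scd2 overlapped from neighbour to neighbour, as did those of Scd1 and Abca1, and the other neighbours did not. After SRBC the order was Apoe, Nr1h2, Scd2, Scd1, Nr1h3, Mylip, Abcg1, Lpcat3, Srebf1 and Abca1, with overlap between Scd2 and Scd1, between Mylip and Abcg1 and between Lpcat3 and Srebf1. Set among the levels of all tested loci, Scd1 went from percentile 14.6 to 60.7 and Nr1h3 from 20.3 to 53.9. Mylip went from percentile 71.9 to 47.4 and Abcg1 from 67.9 to 46.8, so the 4 genes ended near the middle of the expressed range. Apoe kept to percentiles 91.4 and 91.9.

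**Figure D4:**
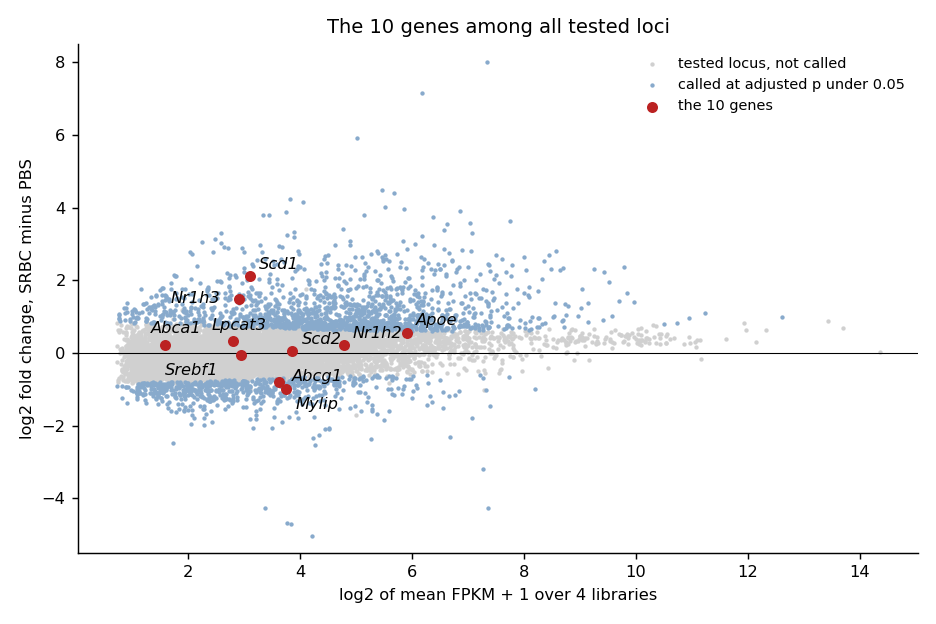
Log2 fold change against the log2 mean level of all 11020 tested loci (grey, or blue where the adjusted p was under 0.05), with the 10 genes in red. Scd1 and Nr1h3 lie in the called band above 0, Mylip and Abcg1 in that below 0, and the other 6 in the grey band.

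In the authors' deposited table the cuffdiff q-values were 0.00101 for Scd1, 0.00345 for Abcg1, 0.00687 for Mylip and 0.0111 for Nr1h3. The other 6 genes had q-values of 0.224 or more in the authors' deposited table. The same 4 genes thus lay below 0.05 there, where 12.5% of the loci tested here did.

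Promoter sequences are shown for 4 of the genes because the classical LXR element, a direct repeat of AGGTCA spaced by 4 bases (DR4), is known from promoters of Abca1 and Srebf1, which were not called, while Nr1h3 and Mylip were. RefSeq starts (GRCm38.p6) were matched for 7 of the 10 genes: Nr1h2, Nr1h3, Abca1, Srebf1, Mylip, Lpcat3 and Apoe. Each sequence is the 250 bases before the start, 5′ to 3′ on the strand of the gene. Capitals mark the best match to DR4 on either strand, except in Mylip, where the best match was poor and they mark ATTGG, the CCAAT box read on the opposite strand. For Abca1 the window is chr4:53159896-53160145, for the most 3′ of the 3 Srebf1 starts chr11:60210472-60210721, for the more 5′ of the 2 Nr1h3 starts chr2:91195117-91195366 (all minus strand) and for Mylip chr13:45389492-45389741 (plus strand). The Srebf1 and Nr1h3 windows lie inside the spans given above for these genes, so they do not cover the bases before the 5′ ends of those spans.
Abca1: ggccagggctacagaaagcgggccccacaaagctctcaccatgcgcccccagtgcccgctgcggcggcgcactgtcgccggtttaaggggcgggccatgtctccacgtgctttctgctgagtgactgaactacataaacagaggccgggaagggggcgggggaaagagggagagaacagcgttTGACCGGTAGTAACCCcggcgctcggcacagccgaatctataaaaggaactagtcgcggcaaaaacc
Srebf1: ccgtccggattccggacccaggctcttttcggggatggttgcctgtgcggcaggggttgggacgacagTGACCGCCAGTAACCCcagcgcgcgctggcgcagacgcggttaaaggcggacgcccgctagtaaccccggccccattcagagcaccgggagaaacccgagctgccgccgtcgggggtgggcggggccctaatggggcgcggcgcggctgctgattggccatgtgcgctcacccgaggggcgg
Nr1h3: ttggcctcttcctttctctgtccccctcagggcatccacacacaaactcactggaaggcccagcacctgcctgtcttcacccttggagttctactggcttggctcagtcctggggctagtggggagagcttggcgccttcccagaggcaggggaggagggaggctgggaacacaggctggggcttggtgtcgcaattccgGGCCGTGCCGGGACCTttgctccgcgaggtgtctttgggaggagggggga
Mylip: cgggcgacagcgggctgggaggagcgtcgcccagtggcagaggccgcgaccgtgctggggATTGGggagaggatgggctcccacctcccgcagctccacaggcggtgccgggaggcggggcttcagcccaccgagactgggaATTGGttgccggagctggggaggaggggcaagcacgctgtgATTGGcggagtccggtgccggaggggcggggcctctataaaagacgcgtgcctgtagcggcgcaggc

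The matches in Abca1 and Srebf1 each held 9 of the 12 fixed positions on the strand opposite to the gene, began 67 and 182 bases before the start, and were identical to each other at 14 of 16 bases. Of 32851 promoters of the same length, 18.5% held a match of at least 9. The best match in Nr1h3 held 8, as did 70.6% of promoters or more, and that in Mylip held 6, which every promoter reached. The CCAAT box, bound by NF-Y, occurred 3 times in Mylip, 3 times in Lpcat3, once at each of 2 Srebf1 starts, and in 33.8% of promoters, and the E-box CACGTG in Abca1 and in 6.02%. A match is a description of letters and not of binding, and these windows leave out introns and distant enhancers.

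Beyond the 10 genes, 8 lists of related genes were counted in the same fit (the plot of lipid gene lists). Each count of called genes in these lists stands beside 13.5% called higher and 6.20% lower of all tested loci. No list was tested as a set. Among 15 tested partners and cofactors of LXR, 3 were higher and 1 lower, with a median log2 fold change of 0.047. Nrip1, a corepressor of nuclear receptors, rose from 9.78 ± 0.136 to 23.2 ± 3.80 FPKM (SD, n = 2; log2 fold change 1.16, limma adjusted p = 5.4e-04) and was called in 13 of 14 alternatives. The coactivator gene Ncoa3 fell from 40.4 to 24.8 (log2 fold change -0.68), and Tbl1x, a corepressor subunit, and Med1, a Mediator subunit, rose (0.73 and 0.67). These 3 calls were less stable, being kept in 8, 6 and 6 of the 14 alternatives, and with TPM rescaling the list had 1 higher and 3 lower. Rxra, which encodes a retinoid X receptor partner of LXR, measured 2.18 and 1.92 with PBS, against 1.88 and 2.20 with SRBC. Rxrb, at 20.4 and 14.1, then 10.9 and 12.2, was the more abundant partner but did not pass (limma adjusted p = 0.14).

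Of 13 tested LXR targets known from macrophages or liver, 3 were higher and 0 lower (median 0.41), with 1 lower under each of the 4 rescalings. Tgm2, a transglutaminase, went from 85.3 ± 9.38 to 232 ± 15.1 FPKM (log2 fold change 1.44, limma adjusted p = 1.0e-05), Rasgef1b from 93.4 to 254 and Cd38, an NAD-consuming ectoenzyme, from 7.94 to 21.5. All 3 were called in all 14 alternatives. The lipid-transport targets Pltp (31.1 and 26.5, then 34.0 and 43.6), Apoc1, Smpdl3a and Arl4c did not pass, with log2 fold changes of 0.41, 0.85, 0.46 and 0.57. Apoc1 measured 4.40 and 0.803, then 3.26 and 6.38, so its groups overlapped. Abcg5, Abcg8 and Apoc4 were listed at 0 in every library.

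Of 5 tested enzymes that make or clear oxysterol ligands, 1 was lower and 0 higher (median -0.066). This was Cyp27a1, which makes 27-hydroxycholesterol in mitochondria. It measured 61.3 and 73.1 FPKM in the PBS libraries, then 26.9 and 33.8 in the SRBC libraries. Both SRBC values lay below both PBS values, the mean was 2.21-fold lower (log2 fold change -1.12 ± 0.22 SE, limma adjusted p = 3.5e-04), and the call held in all 14 alternatives. Ch25h, the cholesterol 25-hydroxylase gene, was at 0.0941 to 0.118 FPKM in all 4 libraries and was not tested, as were Cyp7b1, Cyp46a1 and Cyp11a1.

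Of 13 tested genes of desaturation and elongation, 4 were higher and 0 lower (median 0.33), and of 13 of fatty acid synthesis and its control 1 was higher and 0 lower (median -0.11), beside 13.5% higher and 6.20% lower of all tested loci. The difference between the lists was not tested, and quantile normalization gave 2 higher and 1 lower in the first. Elovl6, which lengthens palmitate, measured 0.489 and 0.645 with PBS, against 2.72 and 2.81 with SRBC (4.87-fold). It passed the filter on low values only through the SRBC libraries, so its call, 1 of the 4, is no independent result. Elovl5, which lengthens polyunsaturated fatty acids, went from 43.4 ± 1.73 to 90.1 ± 6.50 (limma adjusted p = 6.5e-04), and Cyb5r3, the cytochrome b5 reductase that feeds electrons to desaturases, from 71.2 ± 1.85 to 149 ± 24.3 (limma adjusted p = 7.5e-04). Elovl5 was called in all 14 alternatives and Cyb5r3 in 13. Hsd17b12, an elongation reductase, was the fourth (log2 fold change 0.73, called in 6 of 14).

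The delta-5 desaturase gene Fads1 measured 2.53 and 1.85 in the PBS libraries, then 2.40 and 2.06 in the SRBC libraries (log2 fold change 0.024, limma adjusted p = 0.96), and the delta-6 desaturase gene Fads2 fell under the filter. Fasn, the fatty acid synthase, measured 6.69 and 7.95 with PBS, against 10.9 and 11.7 with SRBC, which did not pass (log2 fold change 0.57, limma adjusted p = 0.11), nor did Acly (0.41), Acaca (0.13) or Insig1 (0.65). The called gene of that list was Slc25a1, the mitochondrial citrate carrier, which rose from 9.71 to 17.7 (log2 fold change 0.79, limma adjusted p = 0.021) and was kept in 7 of 14 alternatives. With median-of-ratios rescaling that list had 0 higher and 1 lower, and with TPM 0 and 2.

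Sterol handling had 4 of 18 tested genes higher and 1 lower (median 0.13), or 4 and 3 after quantile normalization. Lrp8, an APOE receptor, measured 7.61 and 7.75 FPKM in the PBS libraries, then 40.9 and 42.3 in the SRBC libraries. It rose 5.42-fold (log2 fold change 2.30 ± 0.23 SE, limma adjusted p = 4.1e-09). On log2(FPKM + 1) this was more than any of the 10 genes, while in plain FPKM Scd1 rose more, 5.72-fold. The sterol transfer genes Gramd1a (17.6 to 78.7) and Gramd1b (9.33 to 28.3) and the acyltransferase gene Soat2 (7.65 to 16.0) rose as well. Scarb1, a receptor that exchanges cholesterol with lipoproteins, fell from 20.5 ± 0.703 to 9.16 ± 0.824 (log2 fold change -1.08, limma adjusted p = 0.0012). Lrp8, Gramd1a, Gramd1b and Scarb1 were called in all 14 alternatives. Srebf2, the regulator of cholesterol synthesis, measured 64.1 and 65.9, then 93.9 and 104, and fell just outside the threshold (log2 fold change 0.59, limma adjusted p = 0.0502). It was called in 4 of 14 alternatives, with log2 fold changes from 0.071 to 0.50 under the 4 rescalings.

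**Figure D5:**
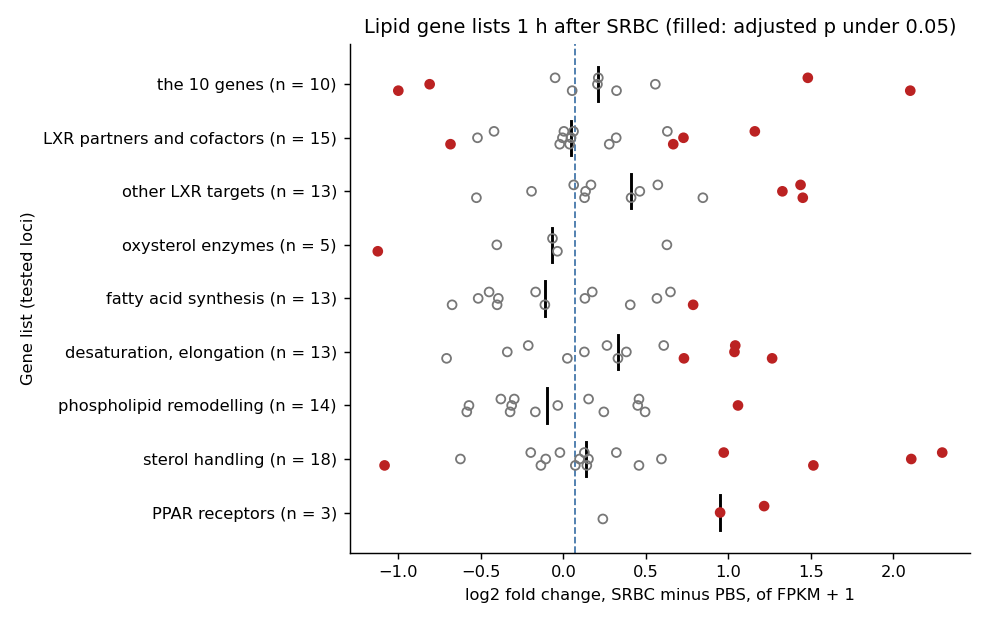
Log2 fold change of each tested gene in the 10 genes and in 8 lists of related genes, filled where the adjusted p was under 0.05; black bars are list medians and the dashed line is the median of all tested loci, 0.070. Called genes lie on both sides of 0 among the 10 genes, the LXR partners and sterol handling.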

How the data were processed

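Per the file headers, each value deposited by the authors is an FPKM of 1 locus in 1 library. CASAVA, TopHat2 2.0.8b, Cufflinks 2.1.1 and the build mm10 are named in the submitters' processing notes. The sources used here do not name the annotation, scaling option or strandedness. Q-values in the authors' table came from cuffdiff, per the file headers, and entered no fit.

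Of 23657 named loci, the 11020 reaching an FPKM of 1 in 2 or more libraries were tested on log2(FPKM + 1) with limma 3.58.1 in R 4.3.3 (mean-variance trend, no covariates, two-sided). P-values were adjusted by Benjamini-Hochberg over all tested loci, with a threshold of 0.05. The pseudocount understates changes of scarce transcripts. Residual degrees of freedom were 2 and prior ones 28.7, which means that the spread was largely borrowed across loci. Of several loci with a symbol, that with the highest mean was used, and older symbols were matched through RefSeq synonyms. The 4 libraries allow 3 splits, too few for a permutation test to pass the threshold. Fragment numbers are rough, since they rest on the longest annotated transcript (GENCODE M21, GRCm38) and a depth estimated from 123 to 153 scarce loci a library, and they cover counting error only.

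The genes and lists were chosen with earlier results of these data known. Named are all 10 genes, up to 4 genes with the smallest p in each list, some pathway genes (Rxra, Fasn, Fads1, Fads2, Elovl5, Elovl6, Insig1, Srebf2, Ch25h), and for each called gene the 2 loci nearest in profile. Rxrb, Acly, Acaca, Scd3, Scd4, Pltp, Apoc1, Smpdl3a, Soat2, the marker genes and genes listed at 0 that fall outside this rule were chosen after their values were seen. On simulated data of 11020 loci for this comparison, the fit found 100% of the genes given a log2 change of 2 or -2 (50 each), 62% at 1 and 50% at -1. It made 4 false calls among 10820 unchanged loci. Alternatives changed the pseudocount, the filter, the scaling between libraries, the variance model, the replicate block or left out a library. Protein sequences were not used here, and 1 further pathway gene is not reported here.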

Additional observations from a re-analysis of the deposited data

How the results depend on the processing

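Scd1 and Nr1h3 were called higher in all 14 alternatives run, while Mylip was called lower in 12 and Abcg1 in 10, and none of these 4 changed sign. Over all tested loci, 1488 were higher and 683 lower. With no filter on low values these became 751 and 184, and 0 of the 10 genes were called lower. Scaling moved the balance: upper-quartile rescaling gave 1022 higher and 1417 lower, TPM 629 and 1648, and quantile normalization 922 and 930. The median log2 fold change of all tested loci went from 0.070 to -0.014 with median-of-ratios, -0.039 with quantile, -0.14 with upper-quartile and -0.33 with TPM scaling. Leaving out each library in turn gave 746 to 1641 higher and 273 to 993 lower loci, and 0 to 2 of the 10 genes lower and 2 to 3 higher, the third being Apoe. Without SRBC library 2 there were 746 and 289 called loci, and without SRBC library 1 there were 1154 and 273. The cause of these shifts was not tested. Same-numbered libraries did not deviate together (correlation 0.0516 over 11020 loci). The labels do not say whether the numbers pair libraries, and this correlation, from 2 libraries a group, cannot decide it. With the replicate block 1684 loci were higher and 620 lower, and 2 of the 10 genes were called in each direction. A gene called under neither setting was counted as unchanged whatever its sign. Nr1h3 and Scd1 rest on roughly 48 to 109 fragments after PBS, which limits their folds.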

Other observations

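Of 3 tested genes among the related PPAR receptors and their coactivators, 2 were higher. For this list and the next, the share of all tested loci was 13.5% higher and 6.20% lower. Ppard, a fatty acid sensor, measured 6.22 and 4.42 FPKM after PBS and 12.4 and 14.7 after SRBC (log2 fold change 1.22, limma adjusted p = 8.2e-04, called in 13 of 14 alternatives). Ppargc1a, a coactivator of mitochondrial genes, measured 0.371 and 0.561, then 1.62 and 2.05. It passed the filter on low values only through the SRBC libraries, so its call is no independent result. Pparg did not pass, at 2.18 and 2.52, then 2.71 and 3.21. Of 14 tested genes of phospholipid remodelling, the list to which Lpcat3 is related by function, 1 was higher and 0 lower (median log2 fold change -0.10), against 1 and 2 with upper-quartile and 0 and 3 with TPM rescaling. This was Agpat4, a lysophosphatidic acid acyltransferase gene, at 19.2 and 19.8, then 43.1 and 40.4 (log2 fold change 1.06, limma adjusted p = 6.9e-04, called in 13 of 14).

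For each called gene the nearest profiles over the 4 libraries were found by the Euclidean distance of centred log2 values, as a description of these libraries. Nearest to Scd1 were Irf4, a transcription factor of CD4+ dendritic cells, at a distance of 0.136 (77.9 and 55.7 FPKM after PBS, 272 and 316 after SRBC), and Plek at 0.152. Nearest to Nr1h3 were Iqsec1 at 0.0372 and the interleukin 4 receptor gene Il4ra at 0.0393 (19.99 and 19.1, then 57.7 and 54.4). Nearest to Abcg1 were Arid5b at 0.0322 and Zbtb44 at 0.0455, and nearest to Mylip were Napepld at 0.0438 and the acetyltransferase gene Kat2b at 0.0817.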
